A study of Apis mellifera with 6 samples.

Results

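Juvenile hormone, ecdysone and insulin carry endocrine signals that insect tissues read through dedicated receptors, enzymes and transcription factors. The genes of these pathways were examined in the antennae of adult honeybee (*Apis mellifera*) workers. Genes were taken if their ID in the deposited expression table was, with case ignored, 1 of 12 names: *Kr-h1*, *Jhamt* and *Jhe* for juvenile hormone, *EcR*, *E74*, *E75*, *Hr38* and *Ftz-f1* for ecdysone, and *InR*, *InR-2*, *Ilp-1* and *Ilp-2* for insulin. Of the 12 names, 7 were listed among 9362 genes, namely 2 juvenile hormone genes (*Jhe* and *Kr-h1*), 3 ecdysone genes (*Ecr*, *E74* and *E75*) and 2 insulin genes (*InR-2* and *ILP-2*). The other 5 names were not found as IDs and these genes are not analysed here under those names.

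The RNA came from 3 libraries of dsx stop/stop workers and 3 libraries of WT workers, each library made from the pooled antennal RNA of 5 bees. The dsx stop/stop workers carried CRISPR-Cas9-induced stop mutations in both copies of *dsx*, a transcription factor gene of the sex-determination pathway, and were somatic mutants, so that the bees of a pool can differ in their alleles. The labels give adult workers for both groups and no age. The deposited table has 1 value per gene for the whole comparison, which is the base mean (the authors' mean of normalized counts over all 6 libraries), the log2 fold change (log2 FC, read as dsx stop/stop over WT) and its standard error (SE). It holds no column per library, so the spread between pools is not shown and no library could be left out.

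Juvenile hormone is made in the corpora allata, acts through a receptor that switches on the transcription factor gene *Kr-h1*, and is degraded by the esterase *Jhe*. Ecdysteroids bind the nuclear receptor EcR together with its partner Usp, and this complex activates early response genes such as *E74*, *E75* and *Br-c*. Insulin-like peptides bind receptor tyrosine kinases and couple nutrition to growth. In honeybees, juvenile hormone and insulin signalling are known for their part in caste development and in the change of worker tasks with age.

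In the antennae, transcripts of each of the pathways were found, and *E75* and *Jhe* had by far the highest base means of the 7 genes. *E75* had a base mean of 11351 normalized counts and *Jhe* of 8685, higher than 98.9% and 98.5% of all listed genes. *Ecr* (636), *Kr-h1* (461) and *E74* (420) lay in the middle of the order, each above the median base mean of 275 over all listed genes. The insulin genes were lowest, with 79.8 for the receptor gene *InR-2* and 21.6 for the ligand gene *ILP-2*. By median, the base mean was 4573 for the 2 juvenile hormone genes, 636 for the 3 ecdysone genes and 50.7 for the 2 insulin genes. The distance between the juvenile hormone and ecdysone genes depends on how they are summarized, and their single genes interleaved. *E75* lay above *Jhe* and *Ecr* above *Kr-h1*, while *E74* was below both juvenile hormone genes. The geometric mean was 2000.3 for juvenile hormone and 1447 for ecdysone, against 41.6 for insulin, the same order as by median. The base mean of both insulin genes was below that of each of the other 5 genes. Base means grow with transcript length as well as with the number of transcripts. Transcript lengths were not used here, so this is an order of read counts and not of transcript levels per length.

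**Figure D1:**
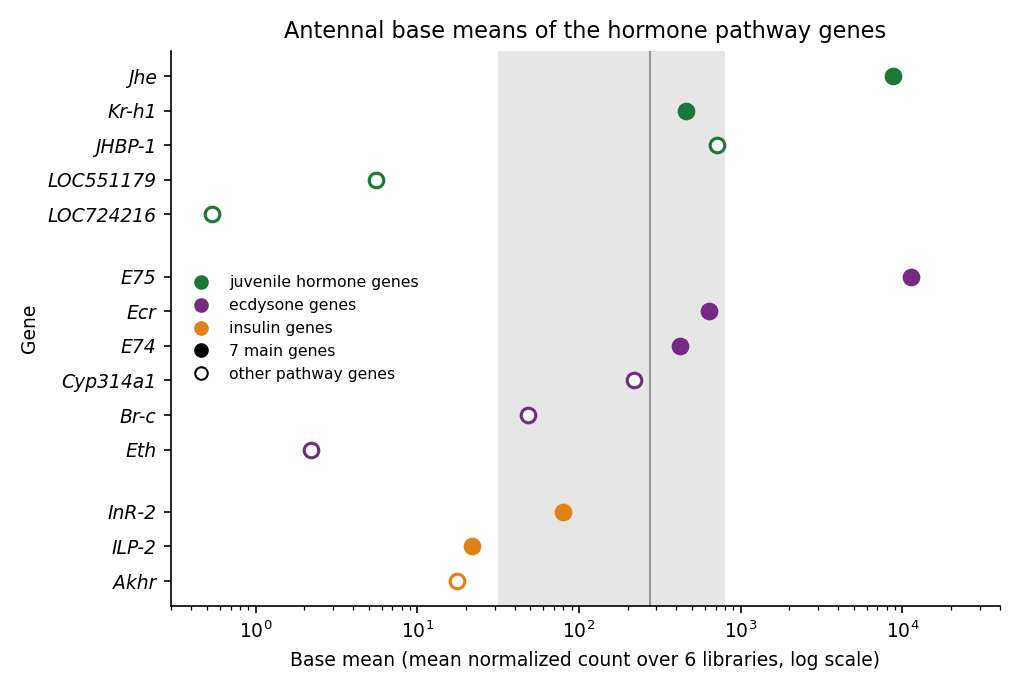
Base mean (normalized counts, log scale) of 14 hormone pathway genes, ordered within each pathway, with filled points for the 7 main genes and open points for the other pathway genes described in the text. The grey band spans the quartiles of all listed genes (31.6 to 804) and the grey line is their median (275); *E75* and *Jhe* lie far to the right of the band. *ILP-2*, *Akhr*, LOC551179, *Eth* and LOC724216 lie to its left, the last furthest at 0.54.

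None of the 7 genes had a log2 FC further than 2 SE from 0 between dsx stop/stop and WT antennae. Over all listed genes, 57 of 9362 (0.609%) were that far from 0, so a count of 0 among 7 genes does not set these pathways apart. At a limit of 1 SE, 1 of the 7 genes was counted, namely *ILP-2*, against 11.9% of all listed genes. In sign, 4 genes had a log2 FC above 0 and 3 below 0. The mutated gene *dsx* had a log2 FC of -0.39 (SE 0.129), lower in dsx stop/stop antennae by more than 2 SE. Whether the stop mutations lower its transcript was not tested, so this value is not a check of the labels.

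Of the juvenile hormone genes, *Kr-h1* encodes a zinc finger transcription factor that is an early response gene of the hormone. It had a log2 FC of -0.033 (SE 0.148), and the interval of 2 SE ran from -0.33 to 0.26. *Jhe*, which encodes the juvenile hormone esterase, had a log2 FC of -0.071 (SE 0.149), with an interval from -0.37 to 0.23. Both values were below 0 and both were smaller than their SE. *Jhe* had the largest difference from genes of similar abundance after *ILP-2*. The 200 genes nearest to it in base mean had a median log2 FC of 0.058, and relative to them *Jhe* was at -0.13, still within 1 SE. *Kr-h1* lies on chromosome LG6 from 16501760 to 16510451 (Amel_HAv3.1) and overlaps no annotated gene. *Jhe* lies on LG3 from 9456503 to 9459237, wholly inside the span of the protein-coding gene LOC100577253, which had a base mean of 393 and a log2 FC of -0.075 (SE 0.131). Whether reads were shared between *Jhe* and LOC100577253 was not tested.

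Of the ecdysone genes, *Ecr*, the gene of the ecdysone receptor, had a log2 FC of 0.028 (SE 0.132), with an interval from -0.23 to 0.29. *E74* encodes an ETS domain transcription factor and had a log2 FC of 0.0044 (SE 0.142), with an interval from -0.28 to 0.29. *E75* encodes a nuclear receptor that is itself induced by ecdysone, and had a log2 FC of 0.043 (SE 0.138), with an interval from -0.23 to 0.32. The 3 values lay within 0.31 SE of 0. *E75* had the highest log2 FC of the 7 genes, but the 200 genes nearest to it in base mean had a median log2 FC of 0.059, and relative to them *E75* was at -0.016. For *Ecr* and *E74* the value relative to genes of similar base mean stayed above 0, at 0.034 and 0.025.

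Of the insulin genes, *InR-2*, which encodes 1 of the insulin-like receptors of the honeybee, had a log2 FC of 0.0081 (SE 0.141), with an interval from -0.27 to 0.29. *ILP-2* encodes an insulin-like peptide, the ligand of this pathway. It had the lowest log2 FC of the 7 genes, -0.18 (SE 0.116), which is a ratio of 0.88 of dsx stop/stop over WT, and its interval ran from -0.42 to 0.048. It was the 121st lowest of the 9362 log2 FC values. Ligand and receptor thus differed in value by 0.19, with a combined SE of 0.183. Relative to the 200 genes of similar base mean, *ILP-2* was at -0.20 and *InR-2* at 0.014.

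**Figure D2:**
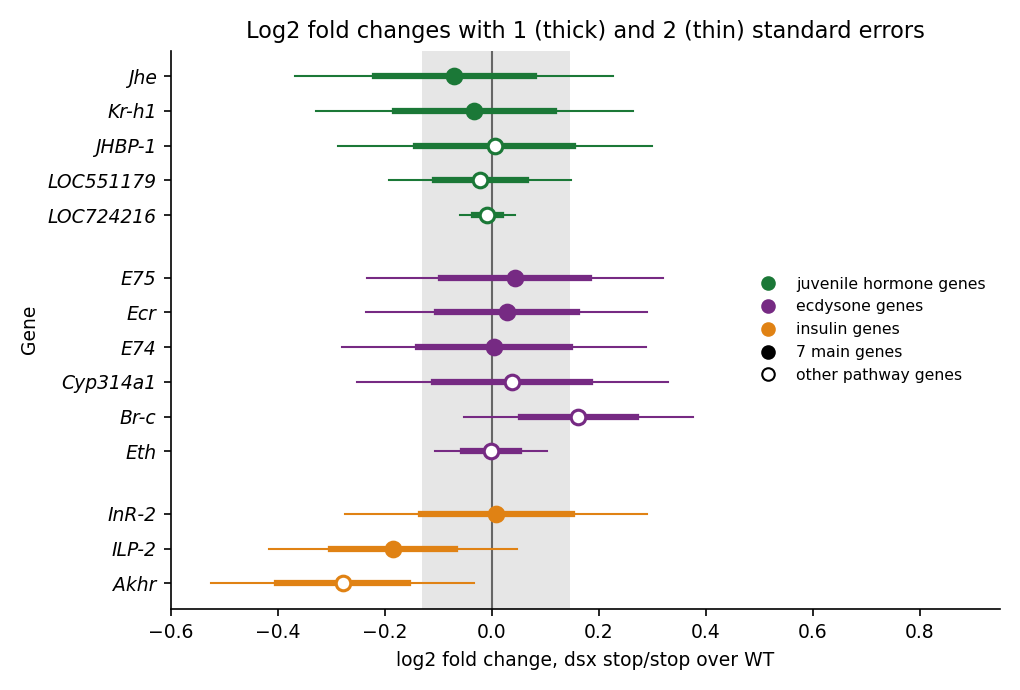
Log2 FC of dsx stop/stop over WT for the 14 pathway genes, with thick bars of 1 SE and thin bars of 2 SE as deposited, and filled points for the 7 main genes. The grey band holds the 5th to 95th percentile of all listed genes (-0.13 to 0.15); *ILP-2* (-0.18), *Akhr* (-0.28) and *Br-c* (0.16) lie outside it, and only the thin bar of *Akhr* ends before 0. The point and short bars of LOC724216 rest on about 4.45 reads and are not interpreted.

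Between the pathways, the median log2 FC was -0.052 for the juvenile hormone genes, 0.028 for the ecdysone genes and -0.088 for the insulin genes, against 0.0031 over all listed genes. The medians spanned 0.12, about the smallest SE of a single member (0.116). Among the 21 pairs of members, 16 of which join different pathways, 0 differed by more than 2 combined SE and 4 by more than 1. All 4 set *ILP-2* against another gene, namely *E75*, *Ecr*, *InR-2* and *E74*, and the pair with *InR-2* lies within the insulin pathway. They share the listed SE of *ILP-2*, which was below the 0.216 that counting allows. The widest pair was *E75* and *ILP-2*, with a difference of 0.23 and an interval of 2 SE from -0.13 to 0.59. Combined SE were computed as if the genes were independent, although they were measured in the same libraries. This interval includes 0, which does not show that the pathways behaved alike.

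The listed SE also differed between the genes. It was 0.148 and 0.149 for the juvenile hormone genes, between 0.132 and 0.142 for the ecdysone genes, and 0.116 and 0.141 for the insulin genes. Over all listed genes the SE had an upper edge at 0.149, and *Jhe* and *Kr-h1* lay next to it. Among the 200 genes nearest in base mean, the SE of *Jhe* was higher than that of 98.0% and that of *Kr-h1* higher than that of 92.0%. The SE of the other 5 genes lay between the 20.5th and the 55.0th percentile of their neighbours. *Jhe* had 401 times the base mean of *ILP-2* and the larger listed SE. This does not show that *Jhe* was measured less precisely, since the listed SE of *ILP-2* was below counting error, as described next.

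To see what counting reads alone would give, the size factors of the libraries were read from the smallest base means in the table. In 93 genes these gave 6 size factors from 0.202 to 2.36, which could not be assigned to a genotype. The highest was 11.7 times the lowest, a wider range than that of the read numbers the authors give. The reason for this difference was not tested. The smallest SE that counting allows was then 0.0108 for *Jhe* and 0.00943 for *E75*, far below the listed values. For *InR-2* it was 0.112, close to the listed 0.141. For *ILP-2* it was 0.216, so that the listed SE of 0.116 was smaller than counting error allows. At its base mean *ILP-2* had the equivalent of about 178 reads in the 6 libraries together. The same held for 2754 of all listed genes (29.4%). Over all listed genes the SE ran from 0.0216 to 0.149 and the log2 FC from -0.39 to 0.72. At the lowest base mean in the table (0.0705), LOC100576338 had a log2 FC of 0.0048 and a listed SE of 0.0216. Counting alone would give an SE of 3.78 there. Listed log2 FC and SE at low counts are thus far smaller than counting reads would give. Whether the log2 FC were shrunken toward 0 is not stated in the sources used here and was not tested. Intervals of 2 SE are therefore those of the listed values, and a value near 0 is not evidence of little change.

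**Figure D3:**
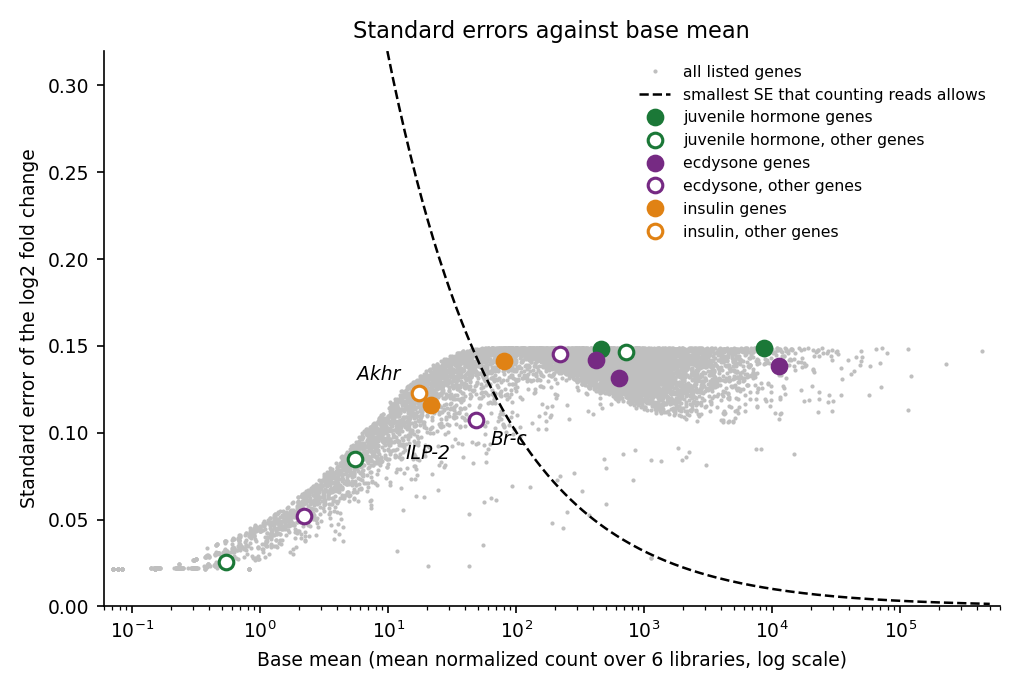
SE of the log2 FC against base mean (log scale) for all listed genes (grey) and the pathway genes (coloured, filled for the 7 main genes), with the smallest SE that counting reads allows as a dashed line. *Jhe* and *Kr-h1* lie at the upper edge of 0.149, and *ILP-2*, *Akhr* and *Br-c* lie left of and below the dashed line.

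The wider pathway lists held 7 more listed genes, found by symbol or synonym. For juvenile hormone, 5 genes of the list were measured and 0 were beyond 2 SE. The highest base mean after *Jhe* was that of *JHBP-1*, named as a juvenile hormone binding protein, with 716 and a log2 FC of 0.0056 (SE 0.147). The biosynthetic genes were barely detected. LOC724216 carries the synonym *jhamt*, the methyltransferase of hormone synthesis, and had a base mean of 0.54, the equivalent of about 4.45 reads in all libraries together. LOC551179, with the synonym *CYP15A1*, the epoxidase of hormone synthesis, had a base mean of 5.53. The genes of degradation (*Jhe*) and response (*Kr-h1*) thus gave far more reads in the antennae than these genes of synthesis. No fold change is given for LOC724216 because its read count is too low.

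For ecdysone, 6 genes of the list were measured and 0 were beyond 2 SE. *Cyp314a1*, which encodes the enzyme that makes the active hormone from ecdysone, had a base mean of 219 and a log2 FC of 0.038 (SE 0.145). *Br-c*, a zinc finger early response gene, had the highest log2 FC of the list, 0.16 (SE 0.107), at a base mean of 48.6. Its SE was below the 0.144 that counting allows. *Eth*, the gene of the ecdysis triggering hormone, had a base mean of 2.20. The receptor partner gene *Usp* is not analysed here.

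For insulin, 3 genes of the list were measured. Only *Akhr* was beyond 2 SE, and it was lower in dsx stop/stop antennae. *Akhr* encodes the receptor of adipokinetic hormone, a peptide that mobilizes energy stores and acts beside the insulin pathway rather than in it. Its log2 FC was -0.28 (SE 0.123, interval from -0.53 to -0.033), a ratio of 0.824, and it was the 10th lowest of the 9362 values. At a base mean of 17.5 its listed SE was below the 0.240 that counting allows. It lies on LG1 from 4491818 to 4495954 and overlaps no annotated gene. Across the 3 lists, 1 of 14 genes was beyond 2 SE, beside the 0.609% of all listed genes. For 6 of the 14 genes the listed SE was below what counting allows.

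The genes of the pathways also differed in their genomic span. *E75* (LG11 from 10210607 to 10372038), *E74* (LG3 from 3327213 to 3476366) and *Ecr* (LG8 from 9626947 to 9747799) span 161432, 149154 and 120853 bp, each longer than at least 96.9% of the 7611 listed protein-coding genes. *InR-2* (LG2 from 14542801 to 14593835) spans 51035 bp. *ILP-2* (LG14 from 5016214 to 5017942) spans 1729 bp and *Jhe* 2735 bp, below the median of 4102 bp. The annotation gives 11 transcripts for *E74*, 5 for *E75*, 4 each for *Ecr*, *Kr-h1*, *InR-2* and *ILP-2*, and 1 for *Jhe*. The table has 1 line per gene, so the use of single transcripts cannot be seen in it. Within the span of *Ecr* lies the long noncoding RNA LOC107964817, with a base mean of 21.5 and a log2 FC of -0.072 (SE 0.133). Within that of *E74* lies LOC102654462, also a long noncoding RNA, with a base mean of 40.0 and a log2 FC of 0.17 (SE 0.144). The span of *E74* also holds the protein-coding gene LOC725036 and the microRNA gene *Mir3716a*, which are not analysed here. *ILP-2* shares 185 bp with the protein-coding gene LOC724646 and 552 bp with the long noncoding RNA LOC113219235, which are not analysed here.

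Markers of the antenna ranged widely. The chemosensory protein genes *CSP1* and *CSP3* had base means of 58480 and 48898, each higher than over 99.8% of all listed genes. *CSP4* had 2303, *CSP6* 294, *CSP2* 114 and the gustatory receptor gene *Gr10* 60.5. Of these markers, 0 of the 6 measured, of 12 annotated, were beyond 2 SE. With 0.609% of all listed genes that far from 0, this count does not set them apart. Markers of fat body were low, with base means from 1.22 to 32.6 for the 4 hexamerin genes measured, of 5 annotated markers. Of these, *Hex70a* was beyond 2 SE and higher in dsx stop/stop antennae, with a log2 FC of 0.35 (SE 0.113), while the other 3 lay between -0.039 and 0.034. The SE of *Hex70a* was below the 0.176 that counting allows. Of the 4 annotated genes taken as markers of the hypopharyngeal gland, only 1 was listed, *Hbg3*. It had a base mean of 1970, above those of *CSP6*, *CSP2* and *Gr10* and higher than 90.4% of all listed genes. The log2 FC of *Hbg3* was 0.16 (SE 0.134). Whether RNA of fat body or haemolymph had a part in the values of *ILP-2* and *Akhr* was not tested. In bulk RNA, fewer cells of a type and less RNA per cell cannot be told apart.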

How the data were processed

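Antennal RNA of 3 dsx stop/stop and 3 WT pools was sequenced as single-end reads, which the authors mapped with kallisto to the Amel_HAv3.1 transcriptome and compared with DESeq2 (their versions are not given in the sources used here). The authors deposited 1 table, from which the base mean (mean of normalized counts), the log2 fold change and its standard error were read, with decimal commas as points. The fold change and its standard error are columns of the authors' own comparison and were used because the choice of genes asks for them. The Wald statistic, the p-values, the adjusted p-values and their -log10 values were not used. The direction of the fold change was taken from the heading of the supplementary volcano plot.

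No test across libraries was possible, since the table has no values per library. Genes were described by the distance of the log2 fold change from 0 in units of its standard error, with a limit of 2. Computed here were intervals of 2 standard errors, medians, percentiles, and log2 fold changes relative to the median of the 200 genes nearest in base mean. A size factor was derived from each base mean below 1 that 3 or more genes had in common and that smaller such values did not add up to, taking it as a single read in 1 library. The 6 values found had a geometric mean of 1, which was required for their use. Counting error was then the standard error of a log2 ratio when all reads of a gene, its base mean times the summed size factors (8.25), are split evenly between the genotypes. These functions were tested on simulated data.

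The genes, the wider lists and the limits were chosen with earlier results of these data known. The text names the 7 listed genes and, of the wider lists, all genes beyond 2 standard errors, the 3 with the highest base mean and the extremes of the log2 fold change at a base mean of at least 10, and *Cyp314a1*, LOC724216, LOC551179 and *Eth* were named beside this rule after their values were seen. The wider lists hold 27, 41 and 33 names for juvenile hormone, ecdysone and insulin, of which 7, 8 and 5 matched an annotated gene and 5, 6 and 3 were listed. The reference has no gene descriptions, so genes known only by a locus number were not matched. Base means per kilobase had been planned but were not computed because transcript lengths were not used here. No markers of nervous tissue or muscle were among the listed genes. Of the 9362 listed IDs, 9361 matched the RefSeq annotation of Amel_HAv3.1. Sequences are not shown. Python 3.11.15 was used with numpy 2.4.6, pandas 2.3.3 and matplotlib 3.10.9.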

Additional observations from a re-analysis of the deposited data

How the results depend on the processing

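Summarized by the geometric mean and not by the median, the base mean was 2000.3 and not 4573 for juvenile hormone, 1447 and not 636 for ecdysone, and 41.6 and not 50.7 for insulin. With a limit of 1 SE in place of 2, 1 of the 7 genes was counted in place of 0. In the wider lists, 0 genes in place of 1 were beyond 2 SE when each SE was set to at least that of counting reads, an alternative chosen after seeing the data. It can only widen the SE and keeps the listed log2 FC, so by construction it can only lower the count and says nothing about *Akhr* itself. The other 13 of 18 alternatives that gave a value (a base mean of at least 10, values taken relative to genes of like abundance, the weighted mean, symbols only, and the SE of counting for the 7 genes) moved the pathway medians by less than the smallest SE of a member and left the counts as they were, and 0 reversed a sign of a pathway median. Some of these could not have come out otherwise. The limit of 10 removed none of the 7 genes, whose lowest base mean was 21.6. A larger SE for the 7 genes could not lower a count of 0.

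No paired analysis was possible because all libraries are merged into 1 value for each gene. Fits that leave out each library, or that use other normalizations, filters or tests, were not run, as they need values per library. *Hr38* was not listed, so leaving it out changed nothing, and lengths of transcripts were not at hand for values per kilobase.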
